A study of Mus musculus with 6 samples.

Results

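Proteasome genes were examined in mouse embryonic fibroblasts (cells cultured straight from embryo tissue) with and without Lpar6, which encodes a receptor for the lipid signal lysophosphatidic acid. They were chosen by gene symbol alone, as every symbol that opens with Psm, a letter from a to g and a number, and 49 of the 19057 named genes on the array matched, with 86 of its 45281 probes. The 49 were 15 genes of the constitutive core, 17 of the 19S cap, the 5 immune subunits and activators Psmb8, Psmb9, Psmb10, Psme1 and Psme2, 7 assembly factors, 3 other regulators or special subunits, and 2 symbols that are no subunits (Psmc3ip, a meiotic recombination factor, and Psme3ip1, a partner of the activator Psme3). The arrays were 3 of Lpar6+/+ cells (wild type, arrays A to C) and 3 of Lpar6-/- cells (knockout, arrays D to F). All cells came from a mixed 129SV and C57BL/6 strain background and no treatment, embryo age or time is named in the sources used here. The submitters' title calls the study a knock-down, while the genotype labels, which were followed, name Lpar6-/- cells. No label tells if the replicates are separate embryos or cultures, and the p-values therefore reflect only how these arrays vary, possibly for technical reasons.

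The proteasome is the large protease that degrades proteins marked with ubiquitin. Its barrel-shaped core is built from rings of alpha and beta subunits, and a cap with ATPases binds, unfolds and feeds in the substrates. Interferon-stimulated cells and cells of the immune system exchange the catalytic beta subunits encoded by Psmb5, Psmb6 and Psmb7 for the inducible ones encoded by Psmb8, Psmb9 and Psmb10, which alters the peptides offered to class I histocompatibility molecules. The same signals raise PA28, the activator ring encoded by Psme1 and Psme2.

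Of the 45281 probes, 19646 to 20137 were detected on each wild-type array and 19006 to 19249 on each knockout array. The only Lpar6 probe had intensities of 1373, 1223 and 1278 in the wild type and of 76.7, 77.9 and 76.0 in the knockout, a level at least 37.5-fold lower (limma, adjusted p = 1.51e-09). Of 12 fibroblast markers, 11 were detected on every array, Col1a1, Col1a2, Col3a1, Vim and Pdgfra among them, and Postn on none. Of the 11 kept, 8 were higher in the knockout, with summed intensities over the list of 41266 to 50065 in the wild type and 67622 to 74179 in the knockout. Markers of other cells also differed. Those of adipocytes (8 of 8 kept), muscle (7 of 7) and epithelium (7 of 7) were higher in the knockout. Those of neurons (7 of 7) and cartilage (8 of 8) were lower, and of 6 kept endothelial markers 3 were higher and 1 lower. Among all tested genes 20.6% were called higher and 19.1% lower. Adipoq, Plin1, Cidec, Cidea, Ckm and Esrp1 were detected on no wild-type array and were kept only through the knockout arrays. The direction of these markers is therefore no independent evidence. Levels and changes below are on the normalized log2 scale, a change is knockout minus wild type ± SE with 3 arrays in each group, and a gene is read from its brightest kept probe, probes being kept where at least 3 of the 6 arrays gave a detection p below 0.05. A gene is called where the adjusted p of limma's moderated test, adjusted over all 19802 kept probes, lies below 0.05. The numbers of alternatives given for a gene all refer to this threshold.

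Promoter windows are shown for the genes on which the comparison of inducible and constitutive subunits turns. They hold 250 bases before and 50 bases after the annotated start, from RefSeq on GRCm38.p6, written 5′ to 3′ on the strand of the gene. The window of Psmb8 lies at chr17:34197945-34198244 on the plus strand, that of Psmb9 at chr17:34187281-34187580 on the minus strand and that of Psmb5 at chr14:54617946-54618245 on the minus strand. Capitals mark a GAS motif in Psmb8, an ARE motif in Psmb5 and, in Psmb9, the bases that separate its start from that of its neighbour Tap1.
Psmb8: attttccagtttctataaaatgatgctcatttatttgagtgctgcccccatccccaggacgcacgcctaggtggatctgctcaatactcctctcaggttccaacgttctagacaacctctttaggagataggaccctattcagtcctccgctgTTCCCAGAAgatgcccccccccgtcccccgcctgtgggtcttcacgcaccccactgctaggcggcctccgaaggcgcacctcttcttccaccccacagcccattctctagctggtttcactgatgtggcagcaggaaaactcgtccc
Psmb9: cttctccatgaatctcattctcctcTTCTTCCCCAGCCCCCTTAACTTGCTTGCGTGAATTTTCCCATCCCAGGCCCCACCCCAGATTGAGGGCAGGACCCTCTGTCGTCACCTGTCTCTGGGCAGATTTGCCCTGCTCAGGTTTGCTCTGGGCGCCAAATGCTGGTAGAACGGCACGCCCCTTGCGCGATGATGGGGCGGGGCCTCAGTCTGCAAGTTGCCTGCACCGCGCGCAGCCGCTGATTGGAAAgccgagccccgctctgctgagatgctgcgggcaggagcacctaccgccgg
Psmb5: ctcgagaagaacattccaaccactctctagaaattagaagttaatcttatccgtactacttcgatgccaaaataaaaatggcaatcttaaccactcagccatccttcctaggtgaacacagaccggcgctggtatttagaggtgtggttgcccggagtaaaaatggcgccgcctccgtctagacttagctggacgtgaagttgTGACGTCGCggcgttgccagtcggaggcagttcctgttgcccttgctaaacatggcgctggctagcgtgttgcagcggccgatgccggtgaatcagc
The motifs searched on both strands were the interferon element ISRE (GAAA, any 2 bases and GAAA again), the STAT element GAS (TTCNNNGAA) and the antioxidant element ARE (TGACNNNGC), the last bound by Nfe2l1 and Nfe2l2, regulators known to drive proteasome genes. A window was found for 41 of the 49 genes. GAS occurred in 3 of the 41 (Psmb8, Psmd2 and Psmg1) and in 8.3% of all 32851 windows. ISRE occurred in 5 of the 41 (Psmb3, Psmd4, Psmd9, Psme1 and Psmg4) and in 3.44% of all windows. ARE occurred in 6 of the 41 (Psmb5, Psmb6, Psmc6, Psmd9, Psmd12 and Psme4) and in 12.4% of all windows. The Psmb9 window held no match to any of these motifs. A match describes the letters of the window and does not show that a factor binds there.

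Most tested proteasome transcripts were not called different between the genotypes. Of the 49 genes 41 had a kept probe, and of these 8 were called higher and 2 lower, while 31 were not called. Calls thus reached 24.4% of the tested genes that matched by symbol (the members), beside 39.7% of the 11040 genes tested on the whole array (20.6% higher and 19.1% lower). Without the 2 symbols that are no subunits, 7 of 39 tested genes were called higher and 2 lower (23.1%). The members' median change was 0.12 and that of all genes 0.03. A change smaller than 0.25 in size was found in 30 of the 41 members (73.2%) and in 51.6% of all tested genes. Among the 3698 genes whose probes were at least as bright as the lower quartile of the members, 38.4% were called. The groups did not overlap in 17 members with the knockout above and in 5 with it below, while 52.8% of all tested genes did not overlap (27.6% above and 25.3% below). Only Psmb8 among the called members changed at least 2-fold. Plain log2 values here are those of quantile-normalized intensities with an offset of 50 added and the background left in. Under the authors' values, plain log2 values and the mean of a gene's probes the members' calls came closer to the background, at 34.1% against 44.8%, 39% against 44% and 39% against 41.7%.

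**Figure D1:**
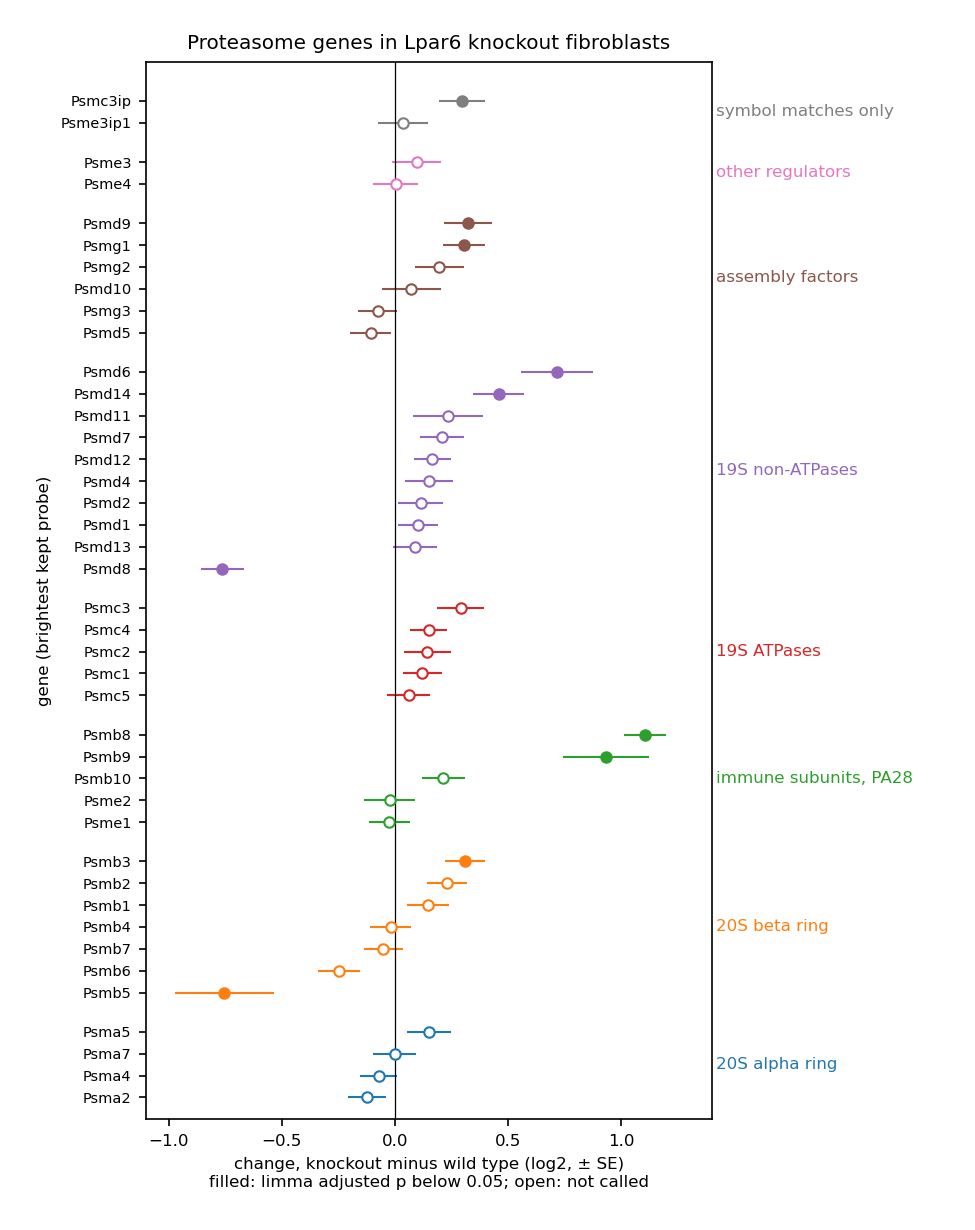
Change of each of the 41 tested genes, knockout minus wild type on the normalized log2 scale with its SE (horizontal axis), grouped by role; filled points are called by limma and open points are not. Psmb8 (1.10) and Psmb9 (0.93) lie farthest to the right and Psmd8 (-0.76) and Psmb5 (-0.76) farthest to the left, while the 5 ATPases and the 4 alpha subunits lie between -0.12 and 0.29.

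The immune subunits split. The inducible catalytic genes Psmb8 and Psmb9 rose, and Psmb10 and both PA28 genes were not called. The 2 calls among these 5 genes (40%) are near the 39.7% called among all genes. Psmb8, which encodes the inducible chymotrypsin-like subunit, had levels of 7.27, 7.25 and 7.27 in the wild type and of 8.23, 8.41 and 8.45 in the knockout. All knockout values lay above all wild-type values, and the wild-type values were nearly equal. Psmb8 rose by 1.10 ± 0.093, or 2.15-fold (limma, adjusted p = 1.95e-05), and remained called under all 17 alternatives. Its changes ran from 0.72 under plain log2 values, which add an offset of 50 and leave the background in, to 1.17. The authors' values gave 0.84. A dimmer Psmb8 probe, with intensities of 96.8 to 123, gave 0.47 ± 0.18 and was not called (adjusted p = 0.0708), though its groups did not overlap either.

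Psmb9, which encodes the inducible counterpart of the Psmb6 product, had levels of 5.86, 6.03 and 5.19 in the wild type and of 6.70, 6.53 and 6.64 in the knockout. The groups did not overlap, and wild-type array C was the lowest. Psmb9 rose by 0.93 ± 0.19, or 1.91-fold (adjusted p = 0.00420), on its only probe, which is dim, at intensities of 104 to 162. It was called under all 16 alternatives that could be run, among them without array C (0.68), while plain log2 values gave 0.34. Its probe did not pass detection p below 0.01 on all 6 arrays.

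Psmb10, the third inducible catalytic subunit, had levels of 9.30, 9.46 and 9.41 in the wild type and of 9.49, 9.61 and 9.70 in the knockout. The knockout values were higher without overlap, yet the change of 0.21 ± 0.096 was not called (adjusted p = 0.111). Its second probe gave 0.33 ± 0.098 and was called (adjusted p = 0.0258). Over 17 alternatives the gene was called in 5, among them the authors' values (0.19, adjusted p = 0.0365) and the mean of its probes (0.27, adjusted p = 0.0351).

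Neither PA28 gene was called. Psme1 had levels of 11.50, 11.51 and 11.44 in the wild type and of 11.44, 11.37 and 11.56 in the knockout, a change of -0.03 ± 0.091 (adjusted p = 0.849). A second Psme1 probe gave 0.16 ± 0.13 and was not called either (adjusted p = 0.375). Psme2 had 8.29, 8.59 and 8.55 against 8.54, 8.32 and 8.50, a change of -0.02 ± 0.11 (adjusted p = 0.891). In both genes the groups overlapped, and neither was called under any of 17 alternatives. Like Lpar6, both lie on chromosome 14, and the Psme1 window holds an ISRE.

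None of the constitutive counterparts was called higher. Psmb5, which Psmb8 replaces, had levels of 10.05, 10.04 and 9.31 in the wild type and of 8.69, 9.31 and 9.15 in the knockout. The knockout values were lower, with array C of the wild type barely above array E of the knockout. Psmb5 fell by 0.76 ± 0.22 (adjusted p = 0.0226) on its only probe. This call is the less firm one: it was lost without wild-type array A (-0.63, adjusted p = 0.0791), wild-type array B (-0.64, adjusted p = 0.0811) or knockout array D (-0.57, adjusted p = 0.0690), without the detection filter (adjusted p = 0.0627) and with a trended robust variance (adjusted p = 0.0657). Without array C the change was -1.01.

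Psmb6, which Psmb9 replaces, had levels of 12.63, 12.85 and 12.71 in the wild type and of 12.52, 12.42 and 12.51 in the knockout. Its values were lower without overlap, at -0.25 ± 0.094, and not called (adjusted p = 0.0647), while 7 of 17 alternatives called it, among them the authors' values (-0.24, adjusted p = 0.00976). Psmb7, which Psmb10 replaces, had 12.49, 12.46 and 12.40 against 12.46, 12.35 and 12.39, with overlap and a change of -0.05 ± 0.086 (adjusted p = 0.674). Of 4 kept Psmb7 probes 1 was called (-0.29 ± 0.10, adjusted p = 0.0482).

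The difference between the changes of each inducible gene and its counterpart was tested on the per-array differences of the log2 values. It was 1.86 ± 0.28 for Psmb8 against Psmb5, 1.18 ± 0.24 for Psmb9 against Psmb6 and 0.26 ± 0.11 for Psmb10 against Psmb7. In each pair all knockout differences lay above all wild-type differences. The 2-sided exact permutation test gave p = 0.1 for each of the 3 pairs (adjusted p = 0.1), the smallest value that 3 arrays against 3 allow, so that this test cannot pass 0.05. The difference of the first pair ranged from 1.36 to 2.12 over 14 alternatives, that of the second from 0.58 to 1.31 over 13 and that of the third from 0.11 to 0.37 over 14, with exact p up to 0.3 in the third. Only changes are compared here, since levels of different probes are not on a common scale.

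**Figure D2:**
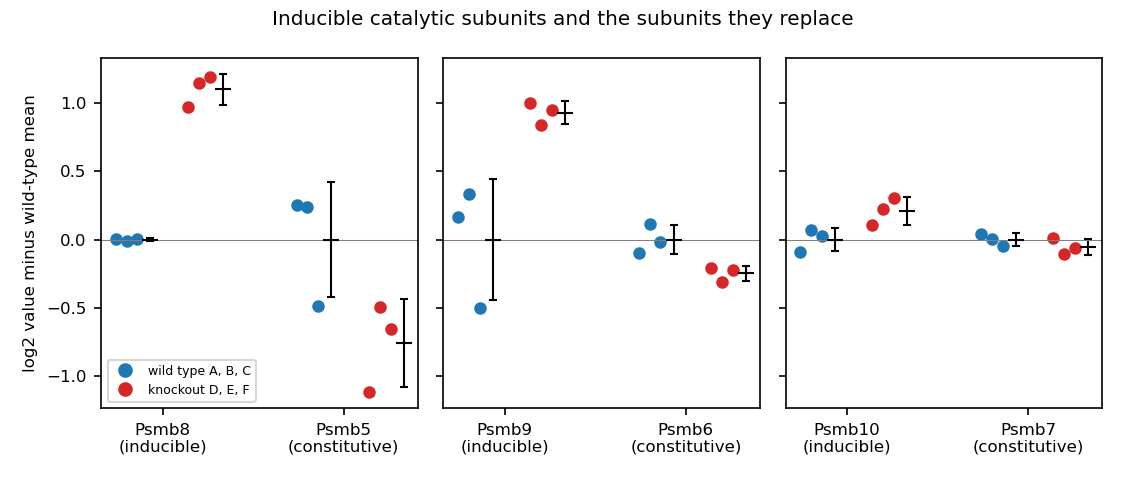
Values on each array, as the normalized log2 value minus the gene's wild-type mean (vertical axis), for the 3 inducible subunits and their constitutive counterparts; black marks are means with SD over 3 arrays. The knockout arrays lie above the wild type for Psmb8, Psmb9 and Psmb10, below it for Psmb5 and Psmb6, and overlap it for Psmb7.

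Psmb9 and Psmb8 lie next to the peptide transporter genes on chromosome 17, in the order Psmb9, Tap1, Psmb8, Tap2, and the 4 neighbours did not move together. Tap2 rose by 1.10 ± 0.085 (adjusted p = 1.10e-05), while Tap1 fell by 0.56 ± 0.14 (adjusted p = 0.0118). Each transporter gene has 1 kept probe, and each call remained under all 17 alternatives. Tap1 had changes from -0.76 to -0.23 over these and Tap2 from 0.41, under plain log2 values, to 1.13. Tap1 and Psmb9 start 225 bases apart on opposite strands and share 275 of the 300 bases of their promoter windows, shown above under Psmb9, yet their changes had opposite signs. Of the 8 other protein-coding genes that follow each other around these 4, 6 had a kept probe: Brd2 (-0.48 ± 0.098) and the class II gene H2-Eb1 (-1.24 ± 0.18) fell, H2-Ab1 rose (0.33 ± 0.11), and H2-DMa, H2-DMb2 and H2-DMb1 were not called. The neighbours, Tap1 and Tap2 included, were chosen by position after the values of Psmb8 and Psmb9 were known.

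**Figure D3:**
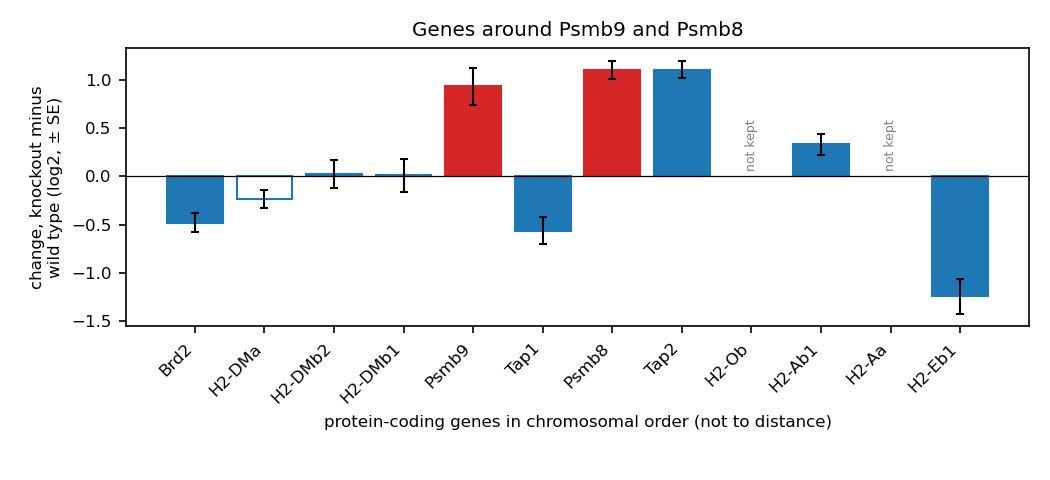
Change of the genes around Psmb9 and Psmb8 in their order on chromosome 17 (log2, bars with SE; filled bars are called by limma, red for the proteasome genes). Psmb9, Psmb8 and Tap2 stand near 1 while Tap1, between Psmb9 and Psmb8, stands at -0.56.

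Other genes of class I presentation and of the interferon response were mixed. Of 14 listed class I genes 11 were kept, and 5 were higher and 1 lower (54.5% called, beside 39.7% of all genes), with a median of 0.24. The largest rises after Tap2 were those of the class I heavy chain genes H2-K1 (0.84 ± 0.12) and H2-D1 (0.81 ± 0.11) and of the loading factor gene Pdia3 (0.67 ± 0.099), while Tap1 was the member that fell. The heavy chain genes are near-identical to one another, so that their values are uncertain. Of 31 interferon response genes 23 were kept, and 6 were higher and 3 lower (39.1% called), with a median of 0.21. Ifi27l2a (1.26 ± 0.11), Trim30a (1.15 ± 0.14, detected on only 2 wild-type arrays), Parp14 (0.67 ± 0.092) and Irf7 (0.64 ± 0.14) led the rises. The 3 that fell were Ifit3 (-0.51 ± 0.084), Gbp2 (-0.47 ± 0.083) and Rsad2 (-0.34 ± 0.087). Among regulators of the immune subunits, Irf1 had a change of 0.25 ± 0.11 (adjusted p = 0.0871) and Nlrc5, the class I transactivator, one of 0.24 ± 0.11 (adjusted p = 0.135).

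White blood cells carry much immunoproteasome, and their markers were read on the same arrays. Of 15 blood and immune markers on the array, Ptprc, Itgam and Itgax were not detected on any array. Of 11 kept markers C1qa was higher (0.58 ± 0.14), Lyz2 was lower (-0.45 ± 0.11) and 9 were not called (18.2% called, beside 39.7% of all genes). The summed intensity of the 15 was 8113 to 8836 in the wild type and 7548 to 7837 in the knockout. In such bulk samples fewer cells of a type and less RNA per cell cannot be told apart.

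In the constitutive core only Psmb5 and Psmb3 were called. Of 15 core genes 11 were kept, with 1 called higher and 1 lower (18.2% called, beside 39.7% of all genes). Their median change was -0.02, and 0.02 under median scaling. In the alpha ring, which gates the barrel, Psma2, Psma4, Psma5 and Psma7 had changes from -0.12 to 0.15 and none was called (adjusted p of 0.248 to 0.986). In the beta ring the structural subunit gene Psmb3 had levels of 12.45, 12.54 and 12.56 in the wild type and of 12.75, 12.91 and 12.82 in the knockout. The groups did not overlap, and Psmb3 rose by 0.31 ± 0.0898 (adjusted p = 0.0233). Its call was lost without wild-type array A, wild-type array B, knockout array E or knockout array F, with adjusted p up to 0.0784. The structural subunit genes Psmb1 (0.14 ± 0.092), Psmb2 (0.23 ± 0.089) and Psmb4 (-0.02 ± 0.092) were not called.

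In the 19S cap 2 genes of the lid rose and 1 fell. Of 17 cap genes 15 were kept, 14 of them with a positive change (13 under median scaling), beside 5872 of the 11040 genes tested in all, and the median change was 0.15. None of the 5 kept ATPase genes, which form the unfolding motor, was called. Their changes ran from 0.06 for Psmc5 to 0.29 ± 0.10 for Psmc3 (adjusted p = 0.0563). The count of calls in the cap depended on the setting. It was 3 by the main analysis (20%, beside 39.7% of all genes) and 5 under the authors' values (33.3%, beside 44.8%). It was 7 (46.7%) under plain log2 values, beside 44% of all genes, and under the mean of a gene's probes, beside 41.7%.

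Psmd8, a subunit of the cap's lid, had levels of 11.75, 11.73 and 11.55 in the wild type and of 10.83, 10.97 and 10.93 in the knockout. The groups lay far apart beside their spread. Psmd8 fell by 0.76 ± 0.095, to 0.589 of the wild type (adjusted p = 0.000246), and stayed called under all 17 alternatives, with changes from -0.83 to -0.72. A second Psmd8 probe was not detected on any array.

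The lid genes that rose were Psmd14 and Psmd6. Psmd14, the enzyme that cuts ubiquitin chains off incoming substrates, had levels of 8.63, 8.66 and 8.81 in the wild type and of 8.95, 9.25 and 9.27 in the knockout, without overlap. It rose by 0.46 ± 0.11 (adjusted p = 0.0107), its second probe was also called (0.57 ± 0.18), and at the threshold of 0.05 the call was lost under 1 of 17 alternatives, median scaling (0.34, adjusted p = 0.0579). Psmd6 had levels of 5.83, 5.72 and 6.16 in the wild type and of 6.37, 6.92 and 6.57 in the knockout. The groups did not overlap, and Psmd6 rose by 0.72 ± 0.16 (adjusted p = 0.00646) on a dim probe, with 0.28 under plain log2 values. A second Psmd6 probe was detected on only 1 wild-type and 1 knockout array and was not kept. The partner of Psmd14, Psmd7, was not called (0.21 ± 0.097), nor was the ubiquitin receptor gene Psmd4 (0.15 ± 0.11). The large scaffold genes Psmd1 (0.10 ± 0.088) and Psmd2 (0.11 ± 0.0997) were not called either. Psmd2 was read from a dim probe, at intensities of 111 to 129, and its other probe was not detected on any array. Psmd11, Psmd12 and Psmd13, also not called, had changes of 0.23, 0.16 and 0.09.

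Most assembly factor genes were not called. Of 7 genes 6 were kept and 2 were called, both higher (33.3%, near the 39.7% called among all genes). Psmg1, a chaperone of alpha ring assembly, had levels of 8.79, 8.93 and 8.84 in the wild type and of 9.10, 9.27 and 9.10 in the knockout. It rose by 0.30 ± 0.094 (adjusted p = 0.0301), a call lost without wild-type array A, wild-type array C or knockout array E and under median scaling (0.18, adjusted p = 0.228). Its dimeric partner Psmg2 was not called by its brightest probe (0.20 ± 0.11), while its other 2 kept probes were both called, at 0.43 and 0.45.

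Psmd9, a chaperone of the ATPase ring, is uncertain. Its brighter probe had levels of 6.00, 6.09 and 6.06 in the wild type and of 6.57, 6.24 and 6.32 in the knockout and rose by 0.32 ± 0.11 (adjusted p = 0.0379). The other, of nearly the same brightness, gave -0.26 ± 0.15 and was not called. Psmd5 (-0.11), Psmd10 (0.07) and the alpha ring chaperone gene Psmg3 (-0.08) were not called. Of the activators outside the immune set, the nuclear PA28 relative Psme3 (0.09) and the large cap gene Psme4 (0.002) were not called. Psmc3ip, no proteasome gene, rose by 0.30 ± 0.10 (adjusted p = 0.0485), and 9 of 17 alternatives did not call it.

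Of the 49 genes 8 had no kept probe and so no comparison. Psmb11, known from thymus, and Psma8, known from testis, were among these, as was the chaperone gene Psmg4. The other 5, Psma1, Psma3, Psma6, Psmc6 and Psmd3, encode subunits that every proteasome needs. Their 7 probes had intensities of 68.6 to 94.3 and were not well above background on any array, which describes the probes and sets no level for the transcripts.

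Probes of the same gene often gave different answers. Of 66 kept probes 16 were called higher and 4 lower. The share called among all kept probes of the array was not counted. The share given above for all genes rests on the brightest probe of each and is no match for this count. Of 19 genes with more than 1 kept probe, 12 had all probes on the same side of 0. In 8 genes another probe was called while the brightest was not: Psmb10, Psmc2, Psmd1, Psmd11, Psmd12 and Psmg2 upward and Psmb7 and Psmd7 downward. The dim probes of Psmd11 (0.84 ± 0.15), Psmd12 (0.75 ± 0.19) and Psmc2 (0.52 ± 0.094) gave larger changes than the bright ones (0.23, 0.16 and 0.14). Psmd7 had probes on both sides of 0, with -0.27 for the dimmest against 0.25 and 0.21. Agreement between probes was not counted for the other genes on the array. Whether such disagreement is particular to proteasome genes was therefore not tested.

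**Figure D4:**
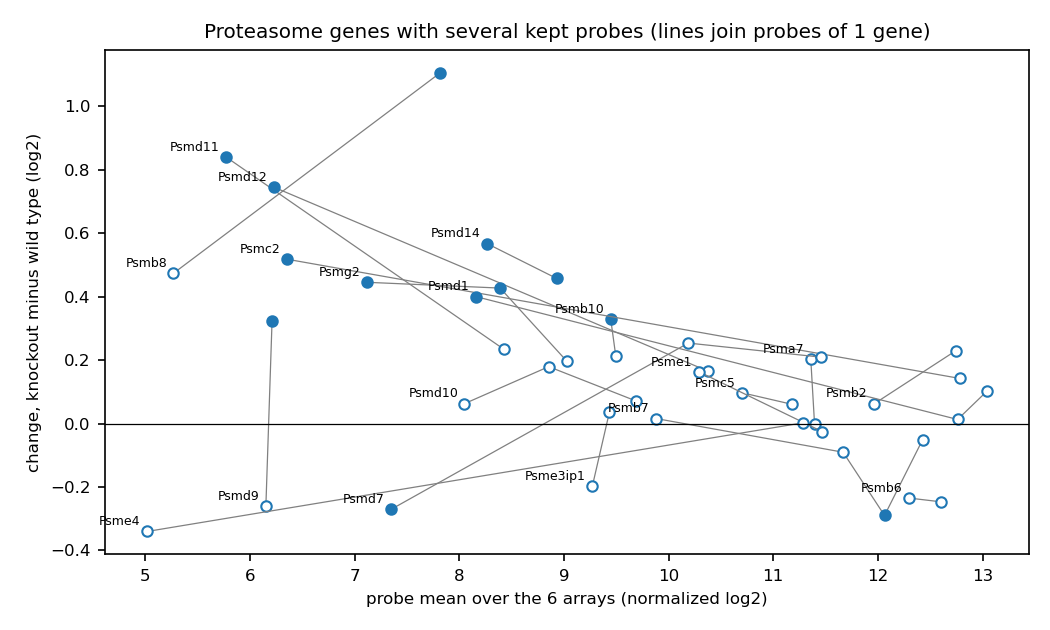
Change of each kept probe (vertical axis, log2) against its mean level over the 6 arrays (horizontal axis, normalized log2) for the 19 genes with more than 1 kept probe; lines join probes of a gene and filled points are called by limma. For Psmd11, Psmd12 and Psmc2 the dim probe lies well above the bright one, for Psmb8 below it.

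Genes that work beside the proteasome moved in both directions. Of 20 listed partners 11 were kept, with 2 called higher, Ecpas (0.47 ± 0.14) and the cap-bound ubiquitin hydrolase gene Uchl5 (0.45 ± 0.10), and 1 lower, the substrate shuttle gene Rad23b (-0.39 ± 0.091). These 27.3% lay below the 39.7% called among all genes. The regulators Nfe2l1 (0.22 ± 0.12, adjusted p = 0.174) and Nfe2l2 (0.23 ± 0.12, adjusted p = 0.149) and the core maturation factor Pomp (-0.28 ± 0.10, adjusted p = 0.0602) were not called. Of 13 listed genes of ubiquitin supply 7 were kept and 3 fell (42.9% called, near the 39.7% of all genes): Uchl1 (-1.20 ± 0.11), Ube2n (-0.56 ± 0.11) and Ube2d3 (-0.32 ± 0.10). Uchl1 is abundant in neurons, whose markers were lower on the same arrays, with summed intensities of 5795 to 6671 in the wild type and 1452 to 1540 in the knockout. The part of that shift in the fall of Uchl1 was not tested.

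Of the 6 proteasome genes on chromosome 14, where Lpar6 lies, 4 had a kept probe. Psmb5 was lower, Psmd6 higher and Psme1 and Psme2 were not called, while 47.8% of the 381 tested genes of that chromosome were called.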

How the data were processed

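Total RNA was measured on Illumina mouse bead arrays, 3 per genotype. The deposited intensity table holds intensities that are not normalized and, beside each, a detection p-value, per the file headers. The group means of the deposited log2 values of the authors lay within 0.0039 of those of quantile-normalized log2 intensities, and the submitters' processing notes name limma. Intensity columns carry genotype and a letter and could not be tied to replicate numbers.

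Here intensities were corrected and quantile-normalized with neqc (limma 3.58.1, R 4.3.3, offset 16). The 19802 probes with detection p below 0.05 on at least 3 of 6 arrays were fitted with lmFit and eBayes, Benjamini-Hochberg adjusted at 0.05, with no covariates. The code was tested on simulated data. The brightest kept probe stood for its gene. Of the probes, 34885 had 1 symbol, 18 several and 10378 none. The number of arrays limits the precision. Values per array were printed for the immune genes, their counterparts and up to 4 called genes with the largest change per class, and from each pathway list up to 4 called genes were named. The regulators that were not called and Psmc3ip, Nlrc5, C1qa and Lyz2 were named in addition. Members and lists were chosen with earlier results of these data known, and the motifs and neighbours after their values were seen. Correlations of same-numbered arrays' deviations were -0.048, 0.020 and -0.054, so the numbers were not taken to pair samples. Alternatives were background correction, scaling, filters, probe summary, variance model, threshold and arrays left out.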

Additional observations from a re-analysis of the deposited data

How the results depend on the processing

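Psmb8, Psmd8, Psmd6, Tap1 and Tap2 kept their call at the threshold of 0.05 and their direction under all 17 alternatives, and Psmb9 under the 16 that gave a value, while Tap1 and Psmd14 did not pass a threshold of 0.01. Counts of calls were less stable, and the share of all tested genes called, 39.7% in the main analysis, moved as well. It was 44% under plain log2 values, 44.3% under neqc with an offset of 50 and 44.8% under the authors' values. The mean of probes gave 41.7%, the stricter detection filter 46.1%, the trended robust variance 44.7% and median scaling 37.2%. It was 26.1% at the 0.01 threshold, 20.8% without the detection filter and 32.4% to 36.8% with an array left out. The 8 members called higher, Psmc3ip among them, became 13 under plain log2 values and the mean of a gene's probes. They became 5 under median scaling, 3 at an adjusted p threshold of 0.01 and 4 to 7 with an array left out. The 2 called lower became 3 under plain log2 values, neqc with an offset of 50, median scaling, the authors' values, the stricter detection filter and the mean of probes, 1 without the detection filter and at the 0.01 threshold, and 1 to 2 with an array left out. The 2 called core genes became 4 under plain log2 values, neqc with an offset of 50, the authors' values and the stricter detection filter, 1 without the filter, 0 at the 0.01 threshold and 0 to 2 with an array left out (0 without wild-type array A or B). The 3 called cap genes became 7 under plain log2 values and the mean of probes, 5 under the authors' values and the trended robust variance, 2 under median scaling and at the 0.01 threshold, and 3 to 4 with an array left out. Psmb10 was called under plain log2 values (0.18), the authors' values (0.19), the mean of probes (0.27), the trended robust variance (0.21) and the replicate block (0.19). Psmd9 turned to -0.16 without knockout array D, where its other probe became the brighter, ranged up to 0.39 (without array E) and lost its call under 12 further alternatives. Median scaling moved the median of all genes from 0.03 to -0.08 and their calls to 1393 higher and 2713 lower. With the replicate block on the authors' values, 11 members were higher and 3 lower, as without the block, with 4 core and 5 cap genes called. The causes of these differences were not tested. Depth could not be read from arrays, and no probe of 8 genes was kept.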
